A study of Mus musculus with 18 samples.

Results

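Cholesterol export and sterol transport genes of the perinatal mouse lung were described one by one across 18 whole-lung arrays. The genes were Abca1, Abcg1, Apoe, Nr1h3, Nr1h2, Mylip, Npc1, Npc2, Stard4 and Pltp, and a gene was measured where a probe set of the array carried its symbol and no other. Of these 10 genes, 9 had such a probe set, 1 each, among 19938 genes and 35556 probe sets, and Nr1h2 had none and is not analysed here. Total lung RNA was hybridised to Affymetrix Mouse Gene 1.0 ST arrays, 3 arrays for each of 6 groups. All values are log2 probe set values as deposited, so that a difference of 1 stands for a 2-fold change. They compare arrays for 1 probe set and do not rank genes.

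The groups came from 2 mouse lines in which a doxycycline-dependent Cre deleted floxed alleles in the respiratory epithelium. ScapΔ/Δ mice were Scap flox/flox with the SP-C-rtTA and (tetO)7CMV-Cre transgenes, of mixed strain background, and their controls were Scap flox/flox littermates that lacked rtTA or Cre. They were taken at E18.5 (controls C7, C8 and C9, deleted KO10, KO11 and KO12) and at PN1, the day of birth (controls C13, C14 and C15, deleted KO16, KO17 and KO18). Insig1/2Δ/Δ mice were Insig1 flox/flox on an Insig2-/- background with the same transgenes, taken at E17.5 (KO22, KO23 and KO24). Their controls (C19, C20 and C21) lacked rtTA or Cre but were Insig2-/- as well. Of the Insig genes, the groups thus differed by design only in the epithelial Insig1. In both lines the deleted mice also carried both transgenes together, which their controls did not. Dams received doxycycline in the chow from early gestation until it was withdrawn at mid-gestation, controls included. The SP-C promoter limits deletion to epithelial cells, deletion in this system was incomplete according to the study, and the RNA came from all cells of the lung. Fewer cells of a type and less RNA per cell cannot be told apart in such samples.

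Cells keep free cholesterol within narrow limits by balancing synthesis and uptake against export. When sterols are low, SCAP escorts the SREBP transcription factors to the Golgi for activation, and the INSIG proteins hold SCAP back when sterols are plentiful. When sterols are high, oxysterols activate the liver X receptors (LXRα, encoded by Nr1h3, and LXRβ, encoded by Nr1h2). These induce the exporters ABCA1 and ABCG1, the acceptor apolipoprotein E, the phospholipid transfer protein PLTP and MYLIP, a ubiquitin ligase that marks the LDL receptor for breakdown. NPC1 and NPC2 hand cholesterol out of the lysosome, and STARD4 carries it through the cytosol. In the lung, alveolar type II cells need cholesterol for surfactant, and alveolar macrophages clear it again.

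The arrays held values from 3.09 to 14.05, and their medians ran from 7.42 to 7.70. KO17 and KO18 stood apart. Over all probe sets their values matched each other closely (r = 0.9944) and those of no other array as well (0.9599 at most), whereas the remaining 16 stood at 0.9729 or more with one another. Comparisons of the members that hold KO17 and KO18 are therefore given with and without them, and so are the gene lists beside them, an alternative for the lists that was chosen after seeing the data. In the Insig line C19, C20 and KO22 correlated at 0.9960 or more, C21, KO23 and KO24 at 0.9932 or more, and arrays across these sets at 0.9914 or less. Nothing in the labels names a batch. The surfactant gene Sftpc stood at or above percentile 99.9 of all probe sets in every array, and the lung epithelial factor Nkx2-1 at or above percentile 89.8. Scap lay below its controls in all deleted arrays, at 9.22 to 9.47 against 9.71 to 9.75 at E18.5 and at 9.53 to 9.65 against 9.76 to 9.92 at PN1. Insig1 lay at 8.21 to 8.58 in Insig1/2Δ/Δ lungs, below every control (mean 9.58).

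Nr1h3, the LXRα gene, had the widest swing between arrays of the deleted PN1 lungs. In the Insig line it measured 9.35, 9.37 and 9.80 in C19, C20 and C21 and 9.42, 10.28 and 10.25 in KO22, KO23 and KO24. At E18.5 Nr1h3 measured 10.45, 10.45 and 10.53 in controls and 10.45, 10.78 and 10.94 in ScapΔ/Δ lungs. At PN1 Nr1h3 measured 9.91, 10.12 and 9.82 in controls and 9.94, 8.60 and 8.71 in KO16, KO17 and KO18. KO16 thus lay among its controls, and KO17 and KO18 were the lowest of all 18 arrays. The order of group means ran from 10.72 in deleted E18.5 lungs and 10.48 in their controls, whose ranges met, down to 9.08 in deleted PN1 lungs. Its partner receptor genes Rxra and Rxrb, with the coregulators Nrip1 and Ncoa1, formed a list of 7 genes of which 4 were tested, and 0 of these passed an adjusted p of 0.05 in any comparison made here.

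Abca1, which loads cholesterol and phospholipid onto lipid-poor apolipoproteins, was lower at each later stage. It measured 10.40, 10.52 and 10.44 in the E17.5 controls and 10.84, 10.45 and 10.05 in Insig1/2Δ/Δ lungs. At E18.5 Abca1 measured 10.03, 9.91 and 9.93 in controls and 9.86, 9.56 and 9.46 in ScapΔ/Δ lungs. At PN1 Abca1 measured 8.88, 8.17 and 8.42 in controls and 8.01, 8.81 and 8.97 in KO16, KO17 and KO18. No PN1 array reached the lowest E18.5 array, and no E18.5 array reached the lowest E17.5 array, though the E17.5 lungs are of another line. Neighbouring group means overlapped in range only between both E17.5 groups, 0.01 apart, and between both PN1 groups, 0.11 apart.

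The Abca1 start is shown because the gene fell with stage in controls and because its window held letters known from LXR and E-box biology. All promoter windows ran from 250 bases before to 50 bases after a RefSeq start (GRCm38.p6), both strands were searched, and the matches below did not overlap. CACGTG, the E-box, was in 2349 of 32851 windows (7.15%) and, of the members' windows, only in that of Abca1. The LXR element (DR4) known from the ABCA1 promoter, TGACCG, 1 base of any kind, TAGT and AACC, was in 2 windows (0.00609%), of which the Abca1 window was 1. The first line gives the 157 bases upstream of the outermost start at chr4:53159989-53160145, minus strand, with the E-box in capitals, and the second 30 bases at chr4:53159940-53159969, minus strand, with the DR4 element in capitals.
Abca1 upstream: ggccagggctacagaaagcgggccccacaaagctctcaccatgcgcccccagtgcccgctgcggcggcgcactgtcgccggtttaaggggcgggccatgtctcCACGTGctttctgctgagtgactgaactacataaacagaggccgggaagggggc
Abca1 element: cagcgttTGACCGGTAGTAACCccggcgct
The E-box began 54 bases before the outermost start, at position 53159988. The DR4 element lay after that start, inside the gene, and began 67 bases before the RefSeq start on which the window was built, at position 53159895. The consensus DR4, AGGTCA repeated after 4 bases of any kind (0.0152% of windows), and the sterol element of the LDL receptor gene, ATCACC followed by CCAC (0.0913%), were in none of the members' windows. Windows existed for Apoe (3), Nr1h3 (2), Nr1h2, Mylip, Npc2 and Pltp (1 each) beside Abca1, and Abcg1, Npc1 and Stard4 were not searched.

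Abcg1, which passes cholesterol to mature HDL and is abundant in macrophages, ranged from 9.90 to 10.42 before birth. It measured 9.90, 10.06 and 10.34 in the E17.5 controls and 9.9995, 10.42 and 10.15 in Insig1/2Δ/Δ lungs. At E18.5 Abcg1 measured 10.30, 10.18 and 10.34 in controls and 10.35, 10.22 and 10.24 in ScapΔ/Δ lungs. At PN1 Abcg1 measured 10.47, 9.94 and 9.97 in controls and 10.13, 9.57 and 9.52 in KO16, KO17 and KO18. KO17 and KO18 were again the lowest arrays of the series, and every pair of neighbouring group means overlapped in range.

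Apoe, the apolipoprotein that accepts exported cholesterol, showed the same split of arrays within groups. It measured 11.52, 11.74 and 12.44 in the E17.5 controls and 11.93, 12.50 and 12.39 in Insig1/2Δ/Δ lungs. At E18.5 Apoe measured 12.67, 12.53 and 12.72 in controls and 12.71, 12.70 and 12.73 in ScapΔ/Δ lungs. At PN1 Apoe measured 12.51, 12.53 and 12.50 in controls and 12.52, 11.75 and 11.80 in KO16, KO17 and KO18. The 3 PN1 controls and KO16 lay between 12.50 and 12.53, apart from KO17 and KO18. All neighbouring group means overlapped in range.

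Pltp, the phospholipid transfer protein, differed by small amounts. It measured 11.52, 11.57 and 11.68 in the E17.5 controls and 11.52, 11.95 and 11.81 in Insig1/2Δ/Δ lungs. At E18.5 Pltp measured 11.93, 11.81 and 11.86 in controls and 11.67, 11.56 and 11.71 in ScapΔ/Δ lungs. At PN1 Pltp measured 11.84, 11.75 and 11.77 in controls and 11.55, 11.57 and 11.52 in KO16, KO17 and KO18. All 6 ScapΔ/Δ arrays lay below every control of their own stage, and KO16 here sat with KO17 and KO18.

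Mylip, the ligase also called IDOL, was low at PN1 and lowest in deleted PN1 lungs. It measured 9.86, 10.05 and 10.57 in the E17.5 controls and 10.02, 10.89 and 10.58 in Insig1/2Δ/Δ lungs. At E18.5 Mylip measured 10.31, 10.05 and 10.37 in controls and 10.14, 10.03 and 9.99 in ScapΔ/Δ lungs. At PN1 Mylip measured 9.41, 9.14 and 8.97 in controls and 8.58, 8.35 and 8.21 in KO16, KO17 and KO18. The groups before birth overlapped in range, the PN1 controls lay below all of them, and the deleted PN1 lungs lay below the PN1 controls. The bases before its start (chr13:45389492-45389741, plus strand) are shown because Mylip was the other member that passed for stage in controls in the fit of 12 arrays, and they held none of the motifs searched, so no letters are in capitals.
Mylip upstream: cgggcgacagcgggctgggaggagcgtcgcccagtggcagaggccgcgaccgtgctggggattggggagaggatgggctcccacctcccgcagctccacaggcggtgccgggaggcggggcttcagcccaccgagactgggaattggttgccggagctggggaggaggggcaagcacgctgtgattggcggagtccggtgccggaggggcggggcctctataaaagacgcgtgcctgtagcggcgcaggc

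Stard4, the cytosolic sterol carrier and a known SREBP-2 target, lay on opposite sides of its controls in both lines. It measured 10.24, 10.09 and 9.98 in the E17.5 controls and 10.38, 10.27 and 10.23 in Insig1/2Δ/Δ lungs. At E18.5 Stard4 measured 9.79, 9.92 and 9.82 in controls and 9.70, 9.64 and 9.64 in ScapΔ/Δ lungs. At PN1 Stard4 measured 10.02, 9.88 and 9.94 in controls and 9.45, 8.93 and 8.76 in KO16, KO17 and KO18. Every ScapΔ/Δ array lay below the controls of its stage, and each Insig1/2Δ/Δ array lay above the mean of its controls with ranges that met. The controls of E18.5 and PN1 overlapped, the deleted E18.5 lungs lay just below both, and the deleted PN1 lungs lay lower still.

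Npc1 and Npc2, the membrane and the soluble protein that move cholesterol out of the lysosome, did not vary alike. Npc1 measured 11.16, 11.13 and 11.36 in the E17.5 controls and 11.13, 11.04 and 10.62 in Insig1/2Δ/Δ lungs. At E18.5 Npc1 measured 11.09, 10.77 and 11.10 in controls and 11.05, 10.76 and 10.70 in ScapΔ/Δ lungs, and at PN1 11.48, 11.09 and 11.26 in controls and 11.07, 11.43 and 11.48 in KO16, KO17 and KO18. The deleted E17.5 arrays were at or below the lowest of their controls, and the other pairs overlapped. Npc2 measured 11.80, 11.73 and 11.87 in the E17.5 controls and 11.78, 11.87 and 11.87 in Insig1/2Δ/Δ lungs. At E18.5 Npc2 measured 11.91, 11.88 and 11.93 in controls and 12.01, 12.13 and 12.07 in ScapΔ/Δ lungs, and at PN1 11.90, 12.01 and 11.89 in controls and 11.96, 11.503 and 11.52 in KO16, KO17 and KO18. Npc2 was thus highest in deleted E18.5 lungs, above every control, and lowest in KO17 and KO18.

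**Figure D1:**
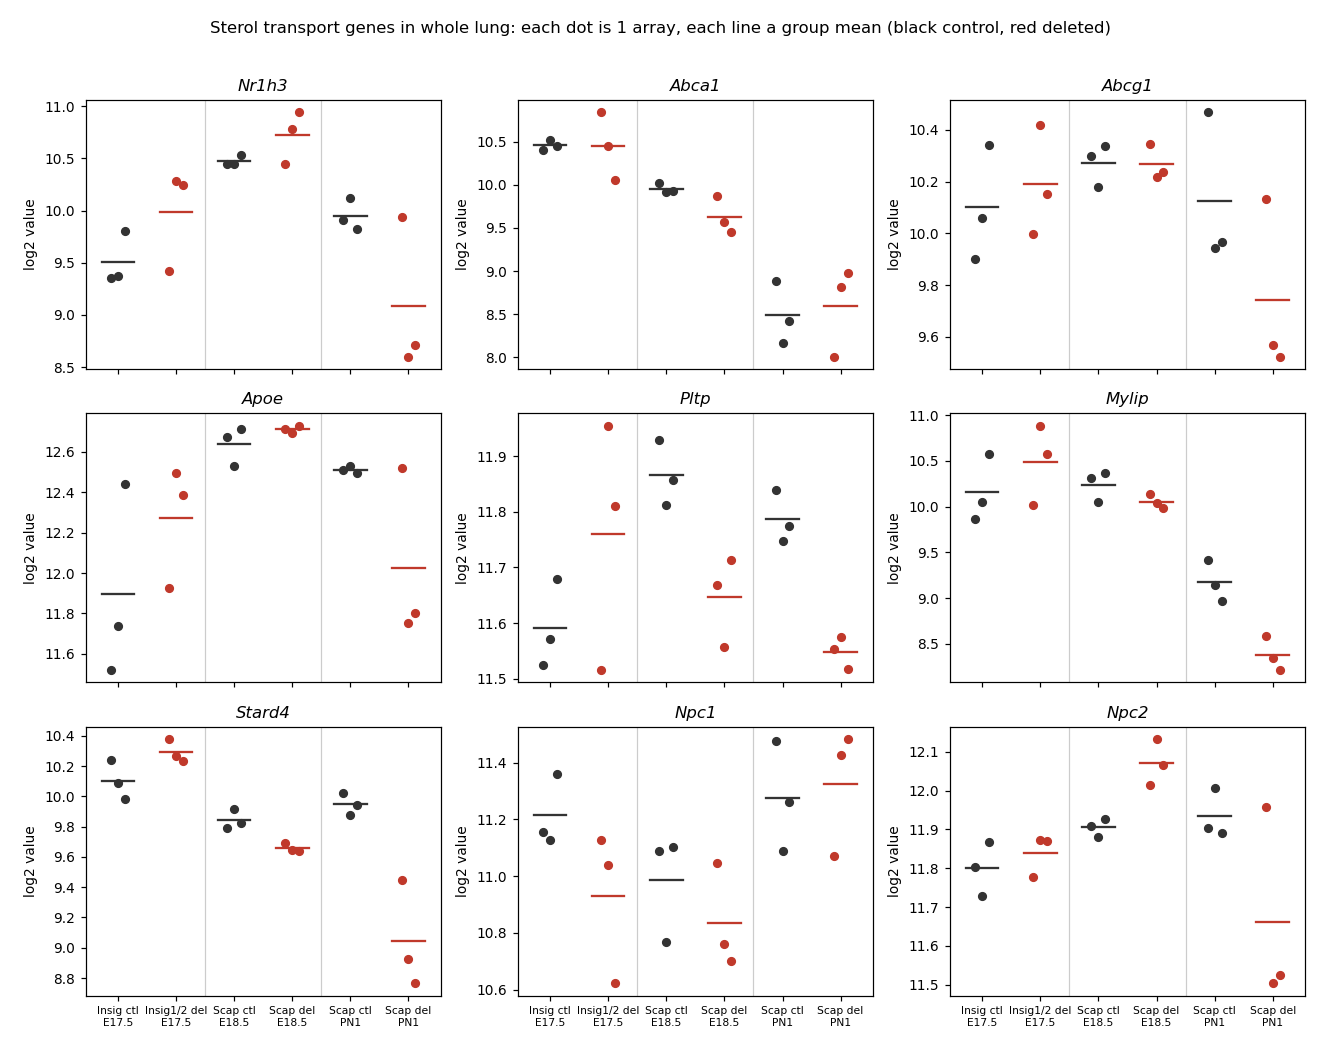
Log2 values (y axes, each gene on its own scale) of the 9 measured genes in 6 groups (x axes), with controls in black and deleted lungs in red. Each dot is 1 array and each line the mean of 3 arrays. Abca1 and Mylip step down at PN1, and KO17 and KO18 lie apart from KO16 in Nr1h3, Abcg1, Apoe and Npc2.

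The first comparison asked how these genes changed across birth in control lungs. Abca1 fell to 0.363 of its E18.5 level (difference -1.46 ± 0.24 log2, SE, 3 arrays against 3, adjusted p = 0.0128) and Mylip to 0.477 (-1.07 ± 0.14, adjusted p = 0.00422). The test was limma over the 12 Scap arrays with Benjamini-Hochberg adjustment over 22800 probe sets, and 2.58% of these passed an adjusted p of 0.05. The other 7 members did not pass. Nr1h3 lay at -0.53 ± 0.29 (adjusted p = 0.528) with all PN1 controls below all E18.5 controls. In a fit of these 6 arrays alone, where KO17 and KO18 do not enter the spread, Nr1h3 passed as well (adjusted p = 0.0102), as did Abca1 (0.00308) and Mylip (0.00393), against 11.1% of all probe sets. Npc1 was at 0.29 ± 0.15, Abcg1 at -0.15 ± 0.17, Apoe at -0.13 ± 0.17, Stard4 at 0.10 ± 0.14, Pltp at -0.08 ± 0.07 and Npc2 at 0.03 ± 0.11, none past the threshold. The 3 genes whose groups did not overlap (Abca1, Mylip and Nr1h3) stood against 34.1% of all probe sets without overlap in either direction. An exact permutation test of a single gene cannot go below p = 0.1, two-sided, with 3 arrays against 3.
The call for Abca1 was lost when C7, C8, C9, C14 or C15 was left out (adjusted p from 0.0542 to 0.0673), with the difference between -1.48 and -1.30. Of the genes of sterol supply that SREBP-2 drives, 6 of 8 were tested and 2 rose, Fdps by 0.66 (adjusted p = 0.0160) and Sqle by 1.11 (adjusted p = 0.0244). In the fit of the 6 control arrays alone, and in the 12-array fit without KO17 and KO18, all 6 passed as higher. The list's median difference was 0.65, that of the 9 members -0.13 and that of all probe sets 0.01.

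In ScapΔ/Δ lungs the same interval showed more calls, and most of the differences were smaller without KO17 and KO18. These arrays are also those of the deletion comparisons, so that both kinds of comparison share samples. In the 12-array fit 7 of 9 members fell and 1 rose, where 37.6% of all probe sets passed. The differences of those that fell were -1.67 for Mylip (adjusted p = 0.000268), -1.64 for Nr1h3 (0.00561) and -1.03 for Abca1 (0.0158). They were -0.69 for Apoe (0.0171), -0.61 for Stard4 (0.0158), -0.53 for Abcg1 (0.0391) and -0.41 for Npc2 (0.0238), and Npc1 rose by 0.49 (0.0329). Pltp was at -0.10 ± 0.07 (0.271). The same 8 genes had groups that did not overlap, against 34.0% of all probe sets. In a fit of these 6 arrays alone only Mylip passed (adjusted p = 0.0385), against 0.281% of probe sets. Leaving KO17 and KO18 out of the 12-array fit left KO16 as the only deleted PN1 array. The differences were then -1.62 for Abca1, -1.47 for Mylip and -0.79 for Nr1h3, and between -0.21 and 0.23 for the other members. The difference between the stage changes of deleted and control lungs was not past the threshold for any member or probe set (0.00%). It was -1.11 for Nr1h3, -0.72 for Stard4, -0.61 for Mylip and -0.56 for Apoe, with the lowest adjusted p at 0.265. Without KO17 and KO18 these values were -0.26, -0.31, -0.40 and -0.06. At an unadjusted p of 0.05, 5 of 9 members and 4181 of 22800 probe sets passed in that test.

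**Figure D2:**
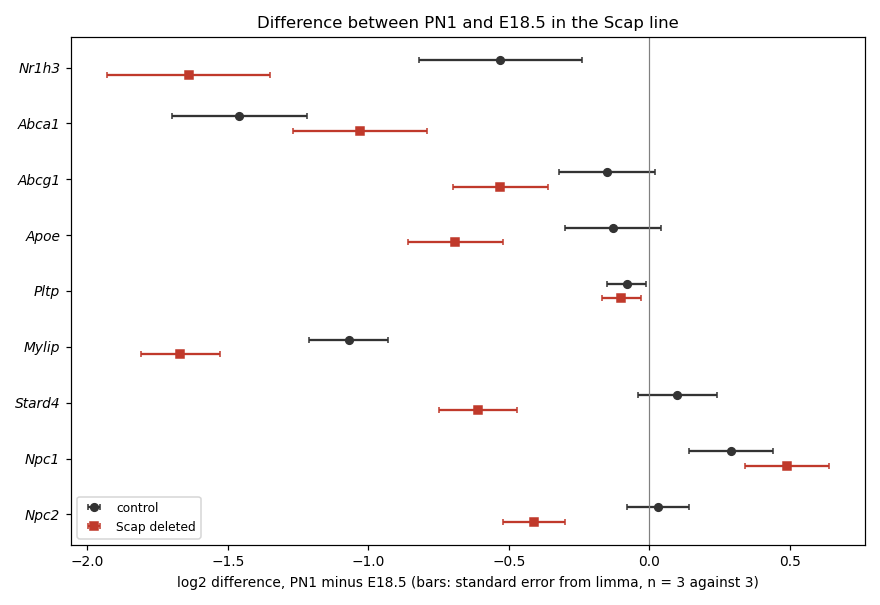
Log2 difference of PN1 minus E18.5 (x axis) for each gene (y axis) in control (black circles) and ScapΔ/Δ lungs (red squares), with bars for the standard error from limma over 12 arrays. Abca1 and Mylip lie left of 0 in both, and Stard4, Npc2, Apoe and Abcg1 lie left of 0 by more than their bars in ScapΔ/Δ lungs only, a difference that did not pass its own test.

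The second comparison asked what the loss of epithelial Scap did at E18.5. No member passed the threshold, where 0.00877% of all probe sets did, 2 of 22800, and 1 member and 2107 probe sets had an unadjusted p under 0.05. Pltp lay below its controls in 3 of 3 arrays (-0.22 ± 0.07, adjusted p = 0.511), as did Stard4 (-0.19 ± 0.14, 0.662) and Abca1 (-0.33 ± 0.24, 0.652). Npc2 lay above its controls in 3 of 3 arrays (0.17 ± 0.11, 0.628). These 4 genes without overlap stood against 35.5% of all probe sets, a share close to their own. Mylip was at -0.19 ± 0.14, Npc1 at -0.15 ± 0.15, Nr1h3 at 0.25 ± 0.29, Apoe at 0.07 ± 0.17 and Abcg1 at 0.00 ± 0.17. A fit of these 6 arrays alone called 0 members and 0.00435% of probe sets. Markers of macrophages and monocytes averaged 0.10 to 0.20 above the control mean in the 3 deleted arrays, with single controls between -0.09 and 0.08. Of these 18 markers, 8, 5 and 5 lay below the control mean in KO10, KO11 and KO12. The 12 type II cell markers averaged 0.14 to 0.21 below it, with single controls between -0.03 and 0.04 and 3, 4 and 3 markers above. The part of both lists in the gene values was not tested.

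At PN1 the deleted lungs fell into a set of genes low in every array and a set low only in KO17 and KO18. Stard4 was at 0.535 of its control level (-0.90 ± 0.14, adjusted p = 0.0792), Mylip at 0.577 (-0.79 ± 0.14, 0.0830) and Pltp at 0.847 (-0.24 ± 0.07, 0.0914). All 3 lay below every control in KO16, KO17 and KO18 alike, and none passed the threshold. Nr1h3 was at -0.87 ± 0.29 (0.0962), Apoe at -0.49 ± 0.17 (0.0997), Abcg1 at -0.38 ± 0.17 (0.156) and Npc2 at -0.27 ± 0.11 (0.133), each overlapping its controls. Abca1 (0.11 ± 0.24) and Npc1 (0.05 ± 0.15) had arrays on both sides of the control mean. Among all probe sets 0.00877% passed, and 6 of 9 members and 7363 probe sets had an unadjusted p under 0.05. In a fit of these 6 arrays alone 0 members and 0.00% of probe sets passed. The 3 members without overlap, all lower, stood against 16.6% of all probe sets in either direction. The median of the 9 differences was -0.38, against -0.06 over all probe sets.
Single arrays showed what the means joined. Against the mean of the PN1 controls, Nr1h3 was at -0.02 in KO16 but at -1.35 and -1.24 in KO17 and KO18, and Apoe at 0.01 but at -0.76 and -0.71. Abcg1 was at 0.01 in KO16 against -0.56 and -0.60, and Npc2 at 0.02 against -0.43 and -0.41. These 4 genes therefore sat at their control level in KO16. Stard4 was at -0.50, -1.02 and -1.18, Mylip at -0.59, -0.83 and -0.96, and Pltp at -0.23, -0.21 and -0.27. Abca1 went the other way, at -0.48 in KO16 and at 0.32 and 0.48 in KO17 and KO18. Scap itself, in RNA from all cells of the lung, did not separate them, at 9.54 in KO16, 9.53 in KO17 and 9.65 in KO18. The 6 measured genes of sterol supply that SREBP-2 drives did, with means of -0.48, -1.20 and -1.27 from the controls. Whether the split followed the strength of the deletion was not tested.
Without KO17 and KO18 in the 12-array fit, Stard4 was at -0.50, Mylip at -0.59 and Pltp at -0.23, Nr1h3 at -0.02, Apoe and Abcg1 at 0.01 and Npc2 at 0.02, and no member passed. Without KO16, 7 members passed, with 14010 probe sets in all: Nr1h3 (-1.30), Stard4 (-1.10), Mylip (-0.89), Apoe (-0.74), Abcg1 (-0.58), Npc2 (-0.42) and Pltp (-0.24). In a fit over all 18 arrays Stard4 (adjusted p = 0.0128) and Mylip (0.0369) passed, with 2995 of 22717 probe sets in all.
The 18 macrophage and monocyte markers moved with this split. Their mean lay 0.05 above the control mean in KO16 and 0.65 and 0.61 below it in KO17 and KO18, with 17 and 18 of 18 markers below, while single controls lay between -0.06 and 0.04. The 12 type II cell markers averaged -0.25 in KO16, -0.54 in KO17 and -0.59 in KO18, with single controls between -0.02 and 0.04. The 3 of 8 erythroid markers with a probe set averaged -0.40, -0.57 and -0.59, with single controls between -0.21 and 0.31. The 8 epithelial markers averaged 0.01, -0.34 and -0.37, with single controls between -0.16 and 0.10. Of these 8, 6 lay below the control mean in KO17 and 5 in KO18. Fibroblast and endothelial lists were within 0.13 of the control mean in all 3. The part of these cell types in the gene values was not tested, nor was that of the narrower spread of values in KO17 and KO18.

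**Figure D3:**
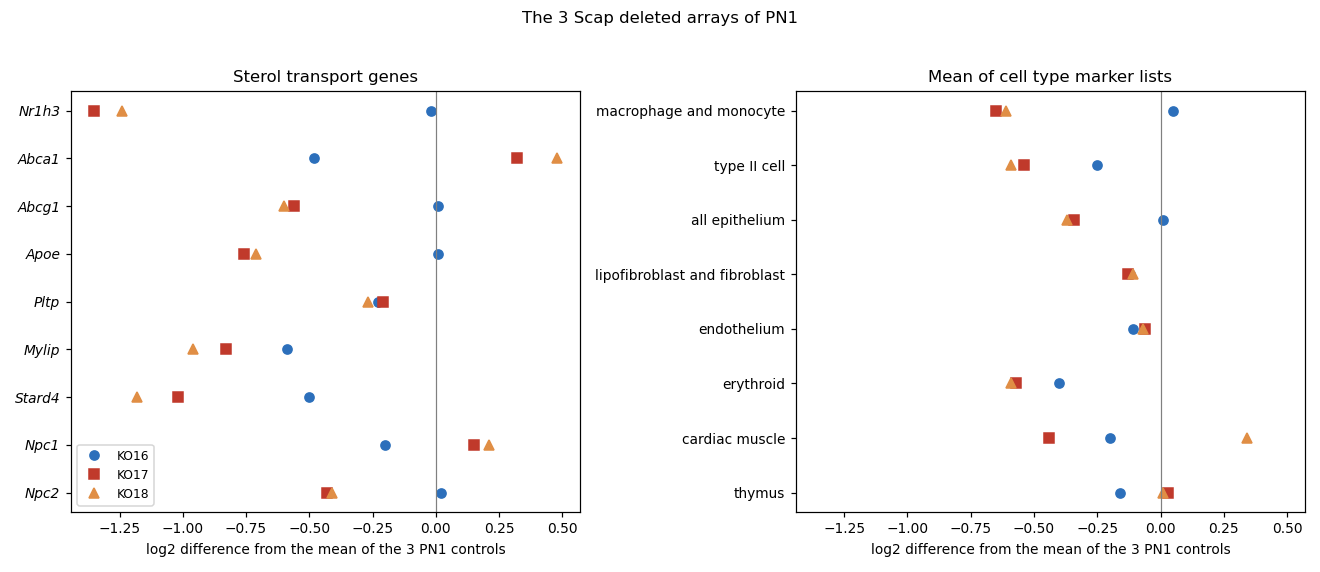
Log2 difference from the mean of the 3 PN1 controls (x axes) in each ScapΔ/Δ array of PN1, for the 9 genes (left) and for the mean of 8 marker lists (right). KO16 lies near 0 for Nr1h3, Abcg1, Apoe, Npc2 and the macrophage list, where KO17 and KO18 lie between -0.41 and -1.35. The epithelial list is split likewise, at 0.01 in KO16 and at -0.34 and -0.37 in KO17 and KO18. All 3 arrays lie left of 0 for Stard4, Mylip and Pltp.

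The third comparison asked what the loss of epithelial Insig1 in Insig2-/- lungs did at E17.5. No member passed the threshold and no probe set of 22775 did (0.00%), with 0 members and 933 probe sets at an unadjusted p under 0.05, and adjusted p-values of the members ran from 0.758 to 0.993. Stard4 was at 0.19 ± 0.09, with each deleted array above the control mean. Nr1h3 was at 0.47 ± 0.26, Apoe at 0.37 ± 0.26, Mylip at 0.33 ± 0.27 and Pltp at 0.17, all with ranges that overlapped. Npc1 was at -0.29 ± 0.15 and was the 1 member whose groups did not overlap, against 4.22% of all probe sets that were lower without overlap. Its value rested on KO24, at -0.59 from the control mean, where KO22 was at -0.09 and KO23 at -0.18. For Nr1h3, Apoe, Abcg1, Pltp and Mylip, C21 was the highest control and KO22 the lowest deleted array. The macrophage and monocyte list ran the same way, at -0.09, -0.05 and 0.14 in C19, C20 and C21 and at -0.10, 0.36 and 0.34 in KO22, KO23 and KO24. The type II cell list did likewise, at -0.01, -0.27 and 0.28 in these controls and at -0.08, 0.29 and 0.11 in these deleted arrays. In the erythroid, endothelial, thymus and cardiac muscle lists C21 was also the highest control and KO22 the lowest deleted array. The epithelial and fibroblast lists did not have this order. C21 stood 1.42 above the control mean for 8 cardiac muscle markers, against -0.84 and -0.58 in C19 and C20. The part of these markers in the gene values was not tested.

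**Figure D4:**
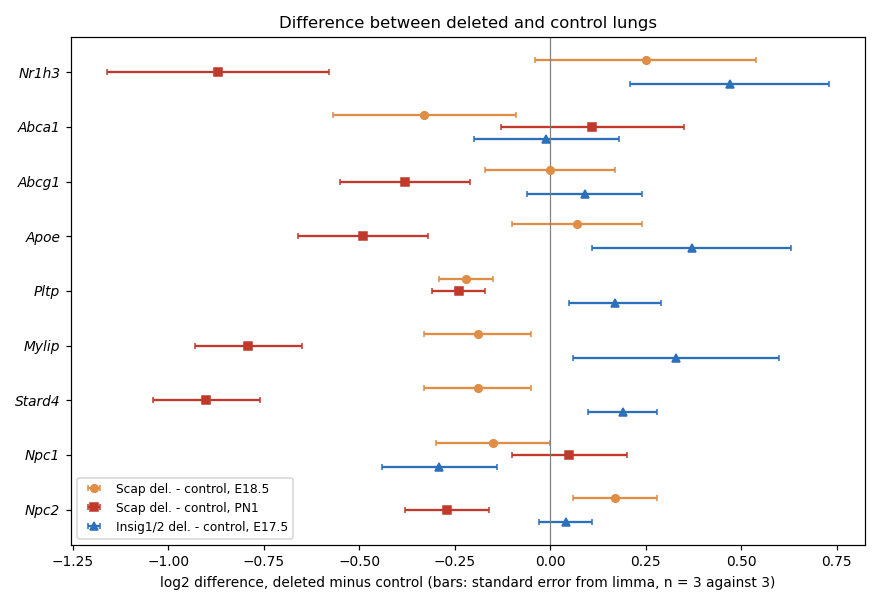
Log2 difference of deleted minus control lungs (x axis) for each gene (y axis) in the Scap line at E18.5 (orange circles) and PN1 (red squares) and in the Insig line at E17.5 (blue triangles), with bars for the standard error from limma. Stard4 lies left of 0 in both Scap comparisons and right of 0 in the Insig line, and no single difference passed an adjusted p of 0.05.

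SCAP and the INSIG proteins act on the same step in opposite ways, so the effects of both deletions were set against each other in 1 fit over all 18 arrays. Ages and lines differ between them and cannot be told apart from the deletion. Stard4 was the only member whose effect differed past the threshold. Its Scap effect at PN1 lay 1.09 below its Insig effect at E17.5 (-1.09 ± 0.18, adjusted p = 0.0311), where 0.119% of 22717 probe sets passed. This call did not hold with medians of the arrays aligned (-1.23, adjusted p = 0.0760), nor without KO17 and KO18 (-0.69, 0.0991), nor in most fits with 1 array left out. Nr1h3 (-1.34), Mylip (-1.12), Apoe (-0.86) and Pltp (-0.41) each had an adjusted p of 0.160. For the Scap effect at E18.5 against the Insig effect, 0.0308% of probe sets passed and no member did. Stard4 was at -0.37 ± 0.18 and Pltp at -0.39 ± 0.13, both with an adjusted p of 0.912. In this test 1 member and 1188 probe sets had an unadjusted p under 0.05.
The genes of sterol supply showed the contrast more widely. Against the Insig effect, 5 of 6 genes had a lower Scap effect at PN1, among them Lss (-1.88, adjusted p = 0.00105) and Fdps (-1.54, 0.00105), and Lss and Fdps also at E18.5 (-1.40 and -1.33). In the deletion comparisons within each line none of the 6 passed, and without KO17 and KO18 in the fit 2 passed as lower at E18.5. All 6 lay below their controls without overlap in ScapΔ/Δ lungs at both stages, where 35.5% (E18.5) and 16.6% (PN1) of all probe sets had groups without overlap in either direction. Their median was -0.48 at E18.5 and -0.89 at PN1. Without KO17 and KO18, where KO16 was the only deleted PN1 array, the median at PN1 was -0.49. Against the Insig effect it was then -1.24, with Lss at -1.49. In Insig1/2Δ/Δ lungs 5 lay above their controls and Insig1, the deleted gene, below, all without overlap. Among all probe sets 5.83% were higher and 4.22% lower without overlap in that comparison. The study drew attention to this pathway with these samples, so the list is no independent evidence of its direction.

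Other genes of sterol handling were counted by role. Of 5 tested LXR targets outside the members, none passed in a deletion comparison. Their median at PN1 was -0.44 in ScapΔ/Δ lungs and 0.01 without KO17 and KO18. Over the 8 genes of the list with a probe set, the mean difference from controls stood at -0.05 in KO16 but at -0.45 and -0.42 in KO17 and KO18. The macrophage and monocyte list had the same split (0.05 above, 0.65 and 0.61 below). So had the epithelial list (0.01, -0.34 and -0.37) and the list of oxysterol synthesis and breakdown (0.02, -0.35 and -0.23). The part of these lists was not tested. Lpcat3, which remodels membrane phospholipids, lay below every control (-0.65 ± 0.16, adjusted p = 0.0897), and at -0.22 without KO17 and KO18.
Between E18.5 and PN1 the calls in most of these lists depended on KO17 and KO18 in both genotypes. In the 12-array fit the background was 37.6% of probe sets in ScapΔ/Δ lungs and 2.58% in controls. In the fits of 6 arrays it was 0.281% and 11.1%, and without KO17 and KO18 it was 6.20% in ScapΔ/Δ lungs.
Of the LXR targets, Apoc1 (-1.37, adjusted p = 0.0360), Smpdl3a (-0.65, 0.0177) and Lpl (-0.42, 0.0472) fell in ScapΔ/Δ lungs in the 12-array fit, with ranges that overlapped for Apoc1 and Lpl. None of them passed in the 6 arrays alone (0.150, 0.138 and 0.169) or without KO17 and KO18, where they were at -0.31, -0.20 and -0.04.
In the list of uptake, esterification and hydrolysis, 9 of 13 genes were tested. In ScapΔ/Δ lungs 2 of them rose and 3 fell, among them the HDL receptor gene Scarb1 (-0.68, adjusted p = 0.00692) and Lipa, the lysosomal acid lipase (-0.77, 0.0145), while Scarb2 rose (0.52, 0.00803). In the 6 ScapΔ/Δ arrays alone none of the 9 passed (Scarb1 0.0923, Lipa 0.133, Scarb2 0.116), and without KO17 and KO18 2 passed as higher. In controls 0 passed in the 12-array fit, and 3 higher and 1 lower in the 6 control arrays, where Lipa fell by 0.37 (adjusted p = 0.0300).
Of 20 tested sterol transfer genes, Osbpl3 rose in controls (0.50, adjusted p = 0.0492), and in ScapΔ/Δ lungs 2 rose and 6 fell, among them Scp2 (-0.67, 0.0118). In the fits of 6 arrays 1 rose and 1 fell in controls and none passed in ScapΔ/Δ lungs, where 1 rose without KO17 and KO18, Osbpl3 (0.64, 0.0448). Osbpl3 was named for being the single call in that count, after its value was seen.
Of 11 tested ABC lipid transporters, Abca4 and Abca5 rose and Abca6 and Abca9 fell in ScapΔ/Δ lungs in the 12-array fit, and 0 passed in controls. In the fits of 6 arrays 1 rose (Abca4, 0.31, adjusted p = 0.0180) and 2 fell in controls, among them Abca9 (-0.62, 0.0475), and none passed in ScapΔ/Δ lungs. Without KO17 and KO18, 3 of 12 fell there, among them Abca6 (-0.82, 0.0240) and Abca9 (-1.06, 0.0252).
Of 4 tested genes of oxysterol synthesis and breakdown, Cyp7b1 (-0.68, adjusted p = 0.0171) and Cyp27a1 (-0.40, 0.0219) fell in ScapΔ/Δ lungs. In the 6 arrays alone neither passed (0.139 and 0.144), and without KO17 and KO18 Cyp27a1 passed (-0.52, 0.0453) and Cyp7b1 was at -0.28.

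Likeness between genes was taken over the 18 arrays, which share groups and the offset of KO17 and KO18, and r without these 2 arrays is given second. Nr1h3 was most like Parp9 (r = 0.98, 0.96), Tango2 (0.98, 0.97) and Ube2l6 (0.97, 0.94), among 16465 probe sets. Abca1 was most like Rnf145 (0.97, 0.97), Nedd4l (0.97, 0.98) and Gphn (0.95, 0.96). Apoe was most like Lyz2 (0.96, 0.95), a lysozyme gene that is also in the macrophage list, Ifi30 (0.96, 0.95) and Irf7 (0.95, 0.94). These 3 members kept their likeness without KO17 and KO18. That of Stard4 to Pank3 (0.97, 0.92), Snai2 (0.95, 0.86) and Prelid1 (0.95, 0.83) and that of Abcg1 to Itgb5 (0.96, 0.94), Mme (0.95, 0.87) and Lipa (0.94, 0.83) was weaker without them. Npc2 was most like Pigc (0.98, 0.96), Npc1 like Pou6f1 (0.95, 0.93) and Pltp like Sh2d3c (0.92, 0.90). Mylip was most like Zfp30, Gm4983 and Siae, each at 0.96 and 0.94. Among the members, Nr1h3 went with Npc2 (0.91, 0.81) and Apoe (0.88, 0.85), and Abca1 with Mylip (0.80, 0.85). Stard4 and Npc2 stood at 0.38 over 18 arrays and at -0.76 without KO17 and KO18, so that their sign turned with these arrays.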

How the data were processed

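Whole-lung RNA was measured on 18 Affymetrix Mouse Gene 1.0 ST arrays. The authors deposited log2 values per probe set. How these were summarised and normalised is not given in the sources used here, and the study's methods name GeneSpring GX for the later analysis. Values were used as deposited. Probe sets were named through the platform annotation (21789 with 1 symbol, 1621 with several and 12146 with none). The members and lists were chosen with earlier results of these data known, and all members were named, with up to 4 genes of each list (called ones first, then by p at PN1). Probe sets at or above the 35th percentile of the array in at least 66% of the fit's arrays were kept, following the filter in the study's methods. Linear models (limma 3.58.1, R 4.3.3, lmFit and eBayes) took in the 12 Scap arrays, the 6 Insig arrays or, across lines, all 18, with Benjamini-Hochberg adjustment and a threshold of 0.05. Scripts were tested on simulated data. Alternatives were the filter, normalisation, array weights, the fit's arrays and leaving out arrays. The study's methods call the arrays of a group biological replicates. Promoter letters are from RefSeq (GRCm38.p6).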

Additional observations from a re-analysis of the deposited data

Results flagged for a closer look

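Stard4 stood out for opposite values in both lines. By the test of the difference itself, its Scap effect at PN1 minus its Insig effect at E17.5 was -1.09 (limma over 18 arrays, adjusted p = 0.0311). In that test 0.119% of 22717 probe sets passed. The call was lost with medians of the arrays aligned and in most fits with 1 array left out. Without KO17 and KO18 the difference was -0.69. Every deleted array lay on 1 side of the control mean in the Insig line (mean 0.19). In the Scap line every deleted array lay on the opposite side, both at E18.5 (mean -0.19) and at PN1 (mean -0.90). These are the arrays of the test above, so the pattern is no further evidence. All measured members were searched for it, and its share among all probe sets was not counted. This pattern over single arrays was not tested beyond the fits given above, and at E18.5 the difference between both lines did not pass (adjusted p = 0.912).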

How the results depend on the processing

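Over 72 differences of single members, 1453 of 1620 values under alternatives kept direction and side of the threshold, 70 lost a call, 58 gained one and 39 changed sign. At E18.5 no member passed under any alternative. Array weights, whose estimation stopped before it converged, gave 8 members at PN1, 5 in the Insig line and 7 for the difference between stages. For the Scap against the Insig effect they gave 3 (E18.5) and 7 (PN1). In the same order 15526, 8366, 14685, 3507 and 15184 of 22717 to 22800 probe sets passed with these weights. All 18 arrays in the fit gave 2 members at PN1, with 2995 of 22717 probe sets in all. A Student test, which the study's methods name for the Insig line only, was run here on every comparison. After Benjamini-Hochberg it called 0 members in each stage comparison, where 2 (controls) and 8 (ScapΔ/Δ) passed in limma, and 0 elsewhere. Unadjusted, 3, 3, 0, 3 and 5 members had a p under 0.05 (E18.5, PN1, Insig, stage in controls, stage in ScapΔ/Δ). So had 5313, 1699, 1117, 5600 and 4709 probe sets, of 22775 in the Insig line and 22800 in the others. The stage comparison in ScapΔ/Δ lungs kept 1 call with only its 6 arrays, where 0.281% of probe sets passed. The Scap effect at PN1 against the Insig effect, 1 call, gave 0 with median centring and 0 without KO17 and KO18. The cause was not tested.
With 1 array left out, members called ranged from 0 to 7 at PN1 (7 without KO16, with 14010 probe sets in all). They ranged from 1 to 3 for stage in controls, with 140 to 2718 probe sets. For stage in ScapΔ/Δ lungs they ranged from 3 to 8, with 1716 to 16316 probe sets (3 without KO11, KO17 or KO18, and 4 without KO12). They ranged from 0 to 7 for the difference between stages (7 without KO16, with 13219 probe sets). For the Scap effect at PN1 against the Insig effect they also ranged from 0 to 7. There 7 passed without KO16 (11962 probe sets), 3 without KO22 (157 probe sets), and 0 in most others.
Signs turned in these cases. Median centring gave Abcg1 0.04 at E18.5, Abca1 -0.03 and Npc1 -0.08 at PN1, and Abca1 -0.02 for PN1 against Insig. Without KO17 and KO18, Abca1 was -0.48, Npc1 -0.20, Abcg1 0.01, Apoe 0.01 and Npc2 0.02 at PN1, the difference between stages -0.16 for Abca1, 0.01 for Abcg1 and -0.05 for Npc1, and PN1 against Insig -0.48 for Abca1. Quantile normalization gave Abca1 0.01 in the Insig line and Pltp 0.04 for stage in ScapΔ/Δ lungs and 0.13 for the difference between stages. Array weights gave Npc1 -0.02 for E18.5 against Insig. With 1 array left out, ranges spanned 0 for Abcg1 at E18.5 (-0.05 to 0.03), Abca1 (-0.08 to 0.40) and Npc1 (-0.04 to 0.18) at PN1, Abca1 (-0.20 to 0.19) and Abcg1 (-0.02 to 0.21) in the Insig line, Npc2 for stage in controls (-0.01 to 0.05), Pltp for the difference between stages (-0.06 to 0.02), Abcg1 (-0.22 to 0.02) and Npc1 (-0.02 to 0.23) for E18.5 against Insig, and Abca1 for PN1 against Insig (-0.08 to 0.41).
Counts over all probe sets moved more. They went from 2 at E18.5 to 21 without KO17 and KO18 and 2558 with array weights, from 2 at PN1 to 18 without a filter, 2995 with all 18 arrays and 15526 with array weights, and from 0 in the Insig line to 8366 with array weights. For stage they went from 589 in controls to 292 with median centring and 2516 without KO17 and KO18, and from 8581 in ScapΔ/Δ lungs to 1414 without KO17 and KO18 and 5 in the Student test. For the Scap effect at PN1 against Insig they went from 27 to 10 without KO17 and KO18 and 15184 with array weights.
The controls were littermates according to the study, but the labels name no litter and each array has its own replicate number. No paired analysis was therefore possible, and litter was not taken into account in any comparison. Precision was limited by 3 arrays per group.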
